A study of Mus musculus with 12 samples.

Results

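The genes described here encode the machinery of antigen presentation and of the interferon response, 35 listed genes, 33 of which are among the 12393 genes with a probe set of their own on the array. They were listed by name and function, with earlier results of these data known, as 12 genes of the class I pathway, 7 of the class II pathway, 9 interferon receptors and transcription factors and 7 interferon-stimulated genes. Each gene was represented by the probe set that carried its symbol alone and had the highest mean over the 12 arrays. The other 2 listed genes, Psme2 and Isg15, lay only on probe sets annotated to several genes, so they have no value here. Of the 33, 28 had a mean at or above the 30th percentile of all probe sets (a log2 level of 3.98), which was the minimum for a test. The 5 below it were Erap1, H2-Aa, Ctss, Ifit1 and Gbp2.

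The values come from ET cells, labelled as a mouse line of cortical epithelium from fetal thymus. Near-confluent cultures received 5 nM TCDD, the dioxin ligand of the AhR (aryl hydrocarbon receptor), or the solvent 1,4-dioxane at 0.05% by volume, and RNA was taken after 2, 4 or 6 h. The 6 groups of treatment and time held 2 Affymetrix arrays each, and the series asked how AhR activation changes gene expression in these cells. All groups came from this line, with no genetic change named in the labels and no untreated group among them. Arrays of a group were called biological duplicates without saying which step was repeated, so p-values measure only the spread between arrays, part of which may be technical. The second 4 h TCDD array named the solvent in its treatment field, and both 6 h solvent arrays named 4 h in part of their labels; the titles set the groups. Cyp1a1, the classic AhR target, lay between 4.0 and 5.5 on the solvent arrays and between 9.3 and 11.1 on the TCDD arrays, the second 4 h TCDD array included. Of 12 cortical thymic epithelial markers on the array 6 lay above the filter (Cxcl12, Ctsl, Ccl25, Krt8, Dll4 and Foxn1). Prss16, Ly75, Epcam, Krt18, Cd83 and Il7 lay below it. Of 8 medullary thymic epithelial markers 4 lay above the filter, and all 13 fibroblast and mesenchyme markers did. Of all 22626 probe sets that were not controls 15844 passed it, so a value above the filter does not by itself show expression. Clustering also parted the 12 arrays into 4 clusters. The largest is called the larger set (7 arrays), and all other clusters were pooled as the smaller set (5 arrays). Both sets cut across treatment, and within the smaller set each time was a separate cluster. The smaller set consisted of the first 4 h TCDD array and, for 2 h and 6 h, the second array of either treatment. In such bulk samples fewer cells that express a gene and less RNA of it per cell cannot be told apart.

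Class I molecules carry peptides cut by the proteasome to the cell surface, where CD8 T cells read them. The TAP transporter moves these peptides into the endoplasmic reticulum, and B2m is the light chain of every class I molecule. Class II molecules present peptides from the endosomal route to CD4 T cells, and their genes are switched on by the coactivator CIITA. Interferons bind paired receptors, act through JAK kinases and STAT factors, and induce both pathways together with antiviral genes. In the thymus, cortical epithelium shows both kinds of molecule to developing T cells, and cathepsin L, encoded by Ctsl, trims the invariant chain there.

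In solvent, genes of the class I pathway were spread from near the top of the array to below the filter. Levels are deposited log2 values, given as the mean ± SD of the 6 solvent arrays, and percentiles rank that mean among all probe sets; comparison between probe sets is only rough. B2m was at 10.98 ± 0.26, at percentile 98.3. The heavy chain genes H2-K1 and H2-D1 were at 8.92 ± 0.10 and 8.92 ± 0.20, at percentiles 92.4 and 92.3. Tapbp, which encodes tapasin, the bridge between TAP and the class I heavy chain, was at 8.65 ± 0.21, and Psme1, a subunit of the PA28 proteasome activator, at 8.93 ± 0.12. The transporter genes Tap1 and Tap2 were at 4.72 ± 0.25 and 5.63 ± 0.25, at percentiles 44.0 and 57.1. The interferon-inducible proteasome subunits Psmb10, Psmb8 and Psmb9 were at 7.08 ± 0.26, 5.20 ± 0.11 and 4.48 ± 0.23. Their constitutive counterparts from the wider list, Psmb5, Psmb6 and Psmb7, ranked at percentiles 96.1, 97.5 and 98.1 over all arrays. Erap1, a peptidase that trims peptides in the endoplasmic reticulum, was at 3.12 ± 0.33 and below the filter.

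H2-K1 had 4 and H2-D1 had 9 probe sets of their own, most of a type whose probes can also match other transcripts. Over the 12 arrays the means of these sets ran from 4.78 to 8.96 for H2-K1 and from 2.94 to 8.93 for H2-D1. Since class I heavy chain genes are near-identical over long stretches, the values of both genes are uncertain in their share of each other's signal.

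Of the class II pathway, 5 of 7 genes passed the filter, and of these Ciita and H2-Ab1 lay close to it. Ctsl was at 11.33 ± 0.10, at percentile 98.7. Cd74, the invariant chain that guides class II molecules to the endosome, was at 6.17 ± 0.53 and had the widest spread of the 33 genes over the solvent arrays. The chain genes H2-Eb1, H2-Ab1 and H2-Aa were at 4.93 ± 0.20, 4.05 ± 0.27 and 3.65 ± 0.14, and Ciita at 4.15 ± 0.18, all below percentile 50. Ctss, the cathepsin that trims the invariant chain in dendritic cells and macrophages, was at 3.08 ± 0.19, at percentile 9.25.

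All 9 interferon receptor and transcription factor genes passed the filter. The receptor chains for type I interferon were at 8.10 ± 0.19 (Ifnar2) and 7.03 ± 0.24 (Ifnar1), and those for interferon gamma at 6.90 ± 0.14 (Ifngr2) and 6.50 ± 0.18 (Ifngr1). The interferon-induced activator Irf1 was at 7.42 ± 0.18, and Irf3, which acts downstream of nucleic acid sensors, at 7.37 ± 0.16. Irf9 and Stat2, which act downstream of the type I interferon receptor, were at 5.92 ± 0.27 and 4.67 ± 0.08, and the inducible Irf7 at 4.53 ± 0.10. Of the interferon-stimulated genes, Oas1a, a sensor of double-stranded RNA, was at 5.58 ± 0.18. The antiviral genes Ifit3, Ifit2 and Rsad2 were at 5.38 ± 0.10, 4.78 ± 0.35 and 4.07 ± 0.16, and Ifit1 and Gbp2 lay below the filter at 3.80 ± 0.31 and 3.10 ± 0.13. The median percentile over all arrays was 77.9 for the 11 class I genes with a value, 73.9 for the receptors and factors, 37.9 for the interferon-stimulated genes and 33.7 for class II.

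**Figure D1:**
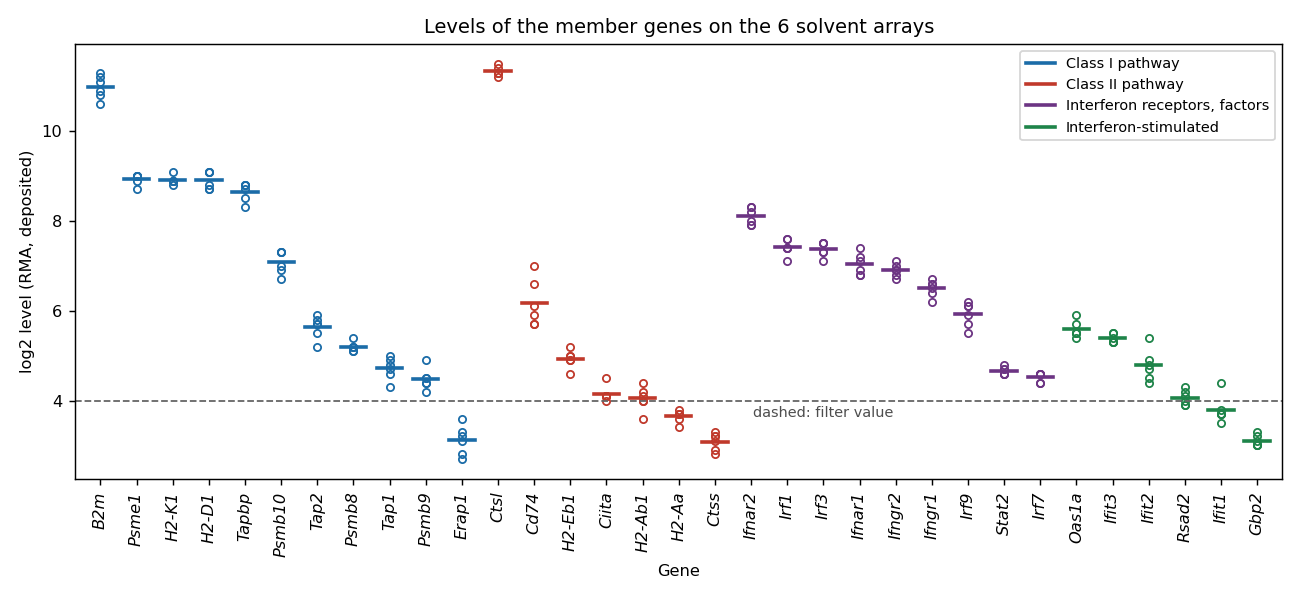
Deposited log2 level (y axis) of the 33 genes with a probe set of their own (x axis, grouped and coloured by pathway) on the 6 solvent arrays; circles are arrays, bars are means and the dashed line is the filter value of 3.98. B2m and Ctsl stand at 10.98 and 11.33, while Erap1, H2-Aa, Ctss, Ifit1 and Gbp2 have means below the dashed line.

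The first question was whether TCDD changed these genes. No gene of the list passed the test: 0 of 28 had an adjusted p under 0.05 in limma's moderated test at 2, 4 or 6 h, on the average of the 3 times, or in the test for a change of the effect over time. Over all 15844 tested probe sets, the share called was 0.0189% at 2 h and 0.0126% at 4 h, 0.00631% at 6 h, 0% for the change over time and 0.0947% on the average. At an unadjusted p under 0.05 the list held 1 gene at 2 h, Irf1, where all probe sets gave 1.49%. At 4 h it held 0 of 28 against 2.17%, and at 6 h 1, Stat2, against 2.15%. On the average it held 1, Irf1, against 3.36%, and for the change over time 1, Irf1, against 0.663%. The median average change was 0.01 in log2 over the 28 genes and 0.00 over all tested probe sets, with 14 genes above and 12 below 0.

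Groups of 2 separate easily, and the count of separated groups was read against all probe sets. At 2 h both TCDD arrays lay above both solvent arrays for 3 of 28 genes (H2-Eb1, Irf1 and Irf7; background 7.16%) and below them for 0 (background 6.68%). At 4 h the counts were 4 above (Psmb8, Psmb10, Stat2 and Oas1a; background 7.95%) and 2 below (Tapbp and Irf3; background 11.1%). At 6 h they were 1 above (Ifnar2; background 9.69%) and 2 below (H2-K1 and Stat2; background 9.66%). For 0 of 28 genes did all 6 TCDD arrays lie above or below all 6 solvent arrays, against 0.246% and 0.0442% of all probe sets. The exact two-sided permutation p of 2 arrays against 2 cannot fall below 0.333, so single genes were tested only in the fit across all probe sets.

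**Figure D2:**
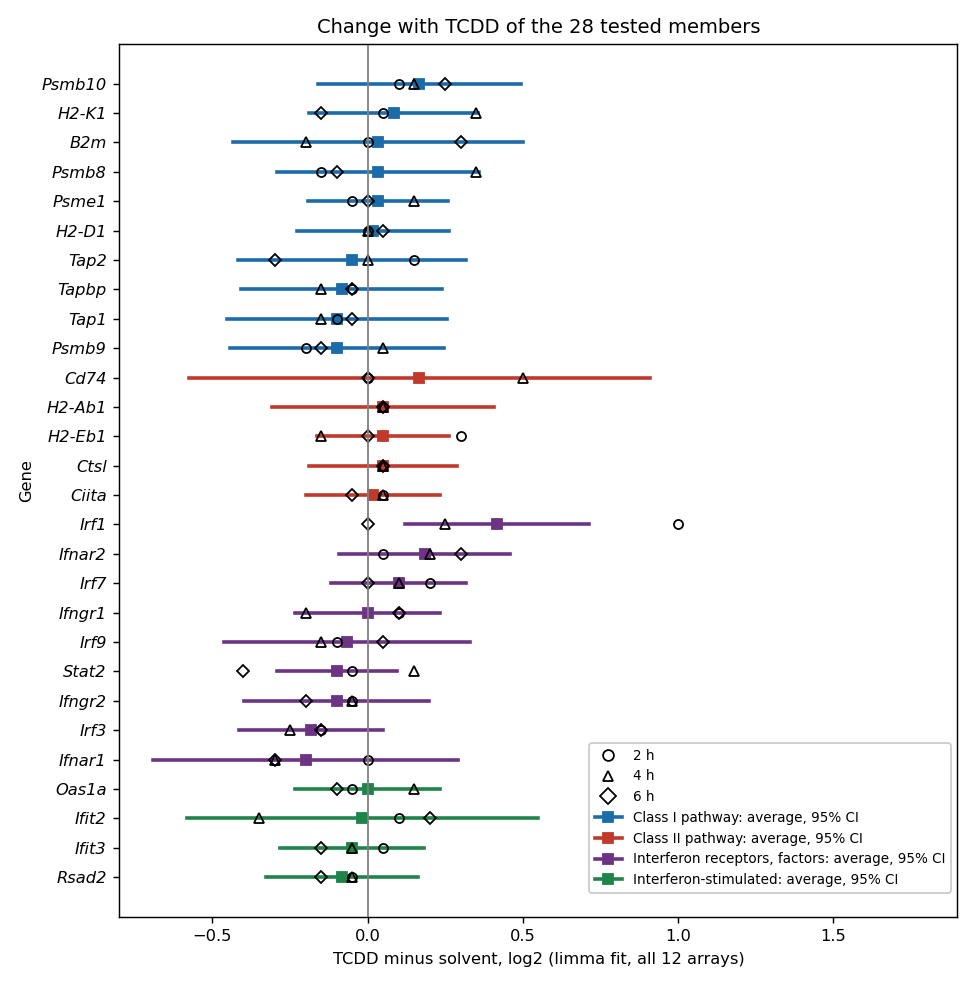
TCDD minus solvent in log2 (x axis) for the 28 tested genes (y axis, coloured by pathway); circles, triangles and diamonds are the changes at 2, 4 and 6 h, squares are the average of the 3 times and bars its 95% confidence interval from limma. The 2 h value of Irf1, at 1.00, stands apart from the others, and its interval is the only one that excludes 0.

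Irf1 had the largest change of the list, at the first time point. At 2 h its level was 7.4 and 7.1 on the solvent arrays and 8.5 and 8.0 on the TCDD arrays. At 4 h it was 7.6 and 7.4 in solvent and 7.6 and 7.9 with TCDD, and at 6 h 7.6 and 7.4 in solvent and 7.7 and 7.3 with TCDD. Both 2 h TCDD arrays lay above all 6 solvent arrays, while the groups met at 4 h and overlapped at 6 h. The change was 1.00 ± 0.23 in log2 (SE, n = 2 arrays per group), a 2.00-fold higher level, and did not pass after adjustment over all probe sets (limma, unadjusted p = 0.00148, adjusted p = 0.834). It was 0.25 ± 0.23 at 4 h and 0.00 ± 0.23 at 6 h, and limma's F-test of the change over time gave an unadjusted p of 0.0295 and an adjusted p of 1.00. Within the array sets, the 2 h change was 1.10 in the larger and 0.90 in the smaller set. With the array set as a block the change was 1.00 ± 0.14 at 2 h (limma, adjusted p = 0.0610) and 0.42 ± 0.15 at 4 h (limma, unadjusted p = 0.0213, adjusted p = 0.999); since the same values formed the sets, these p-values can be too small.

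The 250 bases before the first annotated start of Irf1 are shown because this gene had the largest change of the list. The coordinates are chr11:53769764-53770013 on the plus strand in the RefSeq table of GRCm38.p6, and 31 of the 35 genes had an entry in that table. Capitals mark TTCNNNGAA, a palindrome of the kind that STAT family factors bind, 90 bases before the start, and GCGTG, the core letters of the AhR binding site, 32 bases before it.

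Irf1: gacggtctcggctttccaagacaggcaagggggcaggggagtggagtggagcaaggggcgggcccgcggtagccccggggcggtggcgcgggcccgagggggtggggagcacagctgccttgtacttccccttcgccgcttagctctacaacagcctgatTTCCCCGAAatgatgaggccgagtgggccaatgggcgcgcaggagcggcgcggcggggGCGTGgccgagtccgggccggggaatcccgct

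Over the 250 bases before each start, searched on both strands, GCGTG was found in 28.2% of 32851 promoters and TTCNNNGAA in 7.02%. Among the 31 listed genes with an entry, counted over all their starts, GCGTG was found in 13, against 30.9% of all genes, and TTCNNNGAA in 5 (Irf1, Oas1a, Ifnar2, Psmb8 and Ifit2), against 8.13%. A match describes letters only; binding was not measured here.

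Among the other receptors and factors, Ifnar1, Ifnar2 and Irf3 had the largest average changes. Ifnar1 was at 7.1 and 6.8 in solvent and 7.3 and 6.6 with TCDD at 2 h. At 4 h it was at 6.9 and 7.2 in solvent and 6.3 and 7.2 with TCDD, and at 6 h at 7.4 and 6.8 in solvent and 7.2 and 6.4 with TCDD. Solvent and TCDD overlapped at all 3 times, and the average change was -0.20 ± 0.22, or -0.09 ± 0.11 with the array set as a block. Ifnar2 was at 7.9 and 8.3 in solvent and 8.3 and 8.0 with TCDD at 2 h, at 8.0 and 7.9 against 7.9 and 8.4 at 4 h, and at 8.3 and 8.2 against 8.6 and 8.5 at 6 h. Its groups parted only at 6 h, and its average change was 0.18 ± 0.12. Irf3 was at 7.3 and 7.1 in solvent and 7.2 and 6.9 with TCDD at 2 h, at 7.5 and 7.5 against 7.3 and 7.2 at 4 h, and at 7.5 and 7.3 against 7.4 and 7.1 at 6 h. TCDD was lower in all 3 pairs of means, by -0.18 ± 0.10 on average (limma, adjusted p = 1.00), and the groups parted at 4 h only. On this probe set TCDD was lower in each of the 6 pairs of same-numbered arrays, and with the replicate block the average was -0.18 ± 0.08 (limma, adjusted p = 0.835). Another probe set of Irf3, with a mean level of 6.64, was not lower in every pair. Its second 2 h arrays were at 6.3 in solvent and 6.7 with TCDD, and its first 6 h arrays were both at 6.5. In its other pairs TCDD was lower. The share of all probe sets that were lower in all 6 pairs is not given here.

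Stat2 was the other gene under an unadjusted p of 0.05 in any comparison. At 2 h it was at 4.8 and 4.7 in solvent and 4.6 and 4.8 with TCDD, and at 4 h at 4.6 and 4.6 against 4.7 and 4.8. At 6 h the solvent arrays were at 4.6 and 4.7 and the TCDD arrays at 4.2 and 4.3, the lowest values of the 12 arrays. The 6 h change was -0.40 ± 0.15 (limma, unadjusted p = 0.0240, adjusted p = 1.00), and it was -0.40 within each array set. Another probe set of Stat2, with a mean level of 4.18, gave 0.00 ± 0.20 at 6 h. The promoter of Stat2 is among 9 of the 31 that hold GAAA repeated after a gap of 2 bases, the core of the interferon-stimulated response element, which 3.46% of all genes hold.

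**Figure D3:**
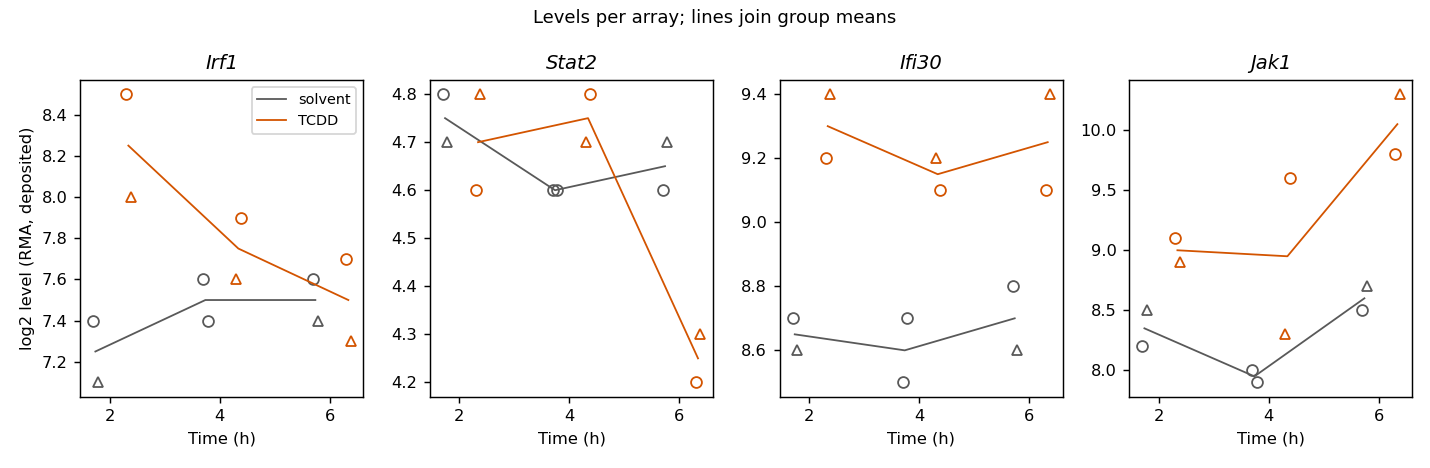
Deposited log2 level (y axis, a separate range in each panel) of Irf1, Stat2, Ifi30 and Jak1 by time in hours (x axis, points set slightly apart), solvent in grey and TCDD in orange; points are arrays, circles of the larger and triangles of the smaller array set, and lines join group means. Irf1 with TCDD is highest at 2 h (8.5 and 8.0), Stat2 with TCDD lowest at 6 h (4.2 and 4.3), and all 6 TCDD arrays of Ifi30 lie at or above 9.1, over all solvent arrays.

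No gene of the class I pathway passed, and changes had both signs. The 10 tested genes had average changes from -0.10 to 0.17, with 6 above and 4 below 0 and a median of 0.03. Their 95% confidence intervals ran from -0.45 (Tap1) to 0.50 (B2m), so average changes beyond these bounds lay outside every interval. Psmb10 had the largest average change, while H2-K1 and Psmb8 reached 0.35 at 4 h alone. Psmb10 was at 7.3 and 6.7 in solvent and 7.3 and 6.9 with TCDD at 2 h, at 7.3 and 7.3 against 7.4 and 7.5 at 4 h, and at 6.9 and 7.0 against 7.5 and 6.9 at 6 h. The groups parted at 4 h only, and the average was 0.17 ± 0.15. Tap1 was at 5.0 and 4.7 in solvent and 5.0 and 4.5 with TCDD at 2 h, at 4.9 and 4.8 against 4.8 and 4.6 at 4 h, and at 4.6 and 4.3 against 4.8 and 4.0 at 6 h. Psmb9 was at 4.2 and 4.9 in solvent and 4.4 and 4.3 with TCDD at 2 h, at 4.4 and 4.5 against 4.8 and 4.2 at 4 h, and at 4.4 and 4.5 against 4.5 and 4.1 at 6 h. Both genes had an average change of -0.10 ± 0.16 and -0.10 ± 0.15, with no time at which the groups parted. B2m ran from 10.6 to 11.3 with a median of 11 in solvent and from 10.2 to 11.5 with a median of 11.1 with TCDD, and its lowest value was on the first 4 h TCDD array. That same array held the highest values of H2-K1 (9.5), H2-D1 (9.3), Psmb8 (5.8) and Psme1 (9.2).

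Tap1 and Psmb9 lie head to head and share the stretch between their starts, chr17:34187331-34187555, which is shown on the plus strand as the pair's common promoter. It holds GCGTG 154 bases and, on the other strand (CACGC), 32 bases before the start of Tap1, both in capitals.

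Tap1 and Psmb9: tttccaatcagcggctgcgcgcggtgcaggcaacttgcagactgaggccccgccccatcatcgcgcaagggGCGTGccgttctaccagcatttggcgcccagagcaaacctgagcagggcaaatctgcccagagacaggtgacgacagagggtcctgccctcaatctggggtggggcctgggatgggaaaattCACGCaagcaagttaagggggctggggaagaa

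The promoter of B2m, chr2:122147437-122147686 on the plus strand, is shown as the interferon-type counterpart among the abundant class I genes. Capitals mark the repeat of GAAA with a gap of 2 bases, 139 bases before the start; the stretch holds no GCGTG on either strand.

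B2m: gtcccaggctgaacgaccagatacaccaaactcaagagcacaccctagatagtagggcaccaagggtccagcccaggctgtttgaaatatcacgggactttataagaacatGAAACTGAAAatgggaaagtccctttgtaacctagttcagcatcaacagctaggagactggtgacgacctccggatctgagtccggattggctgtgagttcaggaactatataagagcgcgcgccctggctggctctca

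The class II pathway was dominated by the spread of Cd74. Cd74 was at 5.9 and 7.0 in solvent and 5.9 and 7.0 with TCDD at 2 h. At 4 h it was at 6.1 and 5.7 in solvent and 7.1 and 5.7 with TCDD, and at 6 h at 5.7 and 6.6 in solvent and 5.7 and 6.6 with TCDD. Both treatments had the same values at 2 h and at 6 h. The average change was 0.17 ± 0.33, with a 95% interval from -0.58 to 0.91, the widest of the list; with the array set as a block the average was -0.01 ± 0.11. The other 4 tested genes had average changes of 0.02 to 0.05. H2-Eb1 was at 4.6 and 4.9 in solvent and 5.0 and 5.1 with TCDD at 2 h, at 5.2 and 5.0 against 5.0 and 4.9 at 4 h, and at 4.9 and 5.0 against 4.9 and 5.0 at 6 h. H2-Ab1 ran from 3.6 to 4.4 in solvent and from 3.8 to 4.4 with TCDD, with a median of 4.05 in both. Ctsl ran from 11.2 to 11.5 in solvent and from 11.2 to 11.6 with TCDD, with medians of 11.3 and 11.35. Ciita ran from 4.0 to 4.5 and from 4.0 to 4.4, with a median of 4.1 in both.

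The 4 tested interferon-stimulated genes had average changes from -0.08 to 0.00. Rsad2, an antiviral enzyme also called viperin, ran from 3.9 to 4.3 with a median of 4.05 in solvent and from 3.9 to 4.1 with a median of 3.95 with TCDD, and changed by -0.08 ± 0.11. Ifit3 ran from 5.3 to 5.5 with a median of 5.35 in solvent and from 5.0 to 5.6 with a median of 5.35 with TCDD. Ifit2 ran from 4.4 to 5.4 with a median of 4.75 in solvent and from 3.8 to 5.4 with a median of 4.8 with TCDD. The lowest values of Ifit3 and Ifit2 were on the second 6 h and the first 4 h TCDD array. Oas1a ran from 5.4 to 5.9 in solvent and from 5.4 to 5.7 with TCDD, and its average change was 0.00 ± 0.10. The intervals of these 4 genes ran from -0.58 to 0.55, both bounds from Ifit2.

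Time in solvent alone was the other comparison of the design. Of the 28 genes 0 passed in limma at 4 h or at 6 h against 2 h, with 0% of all probe sets called and 0 of 28 genes under an unadjusted p of 0.05, against 1.81% and 2.82% of all probe sets. At 4 h both arrays lay above both 2 h arrays for 6 genes (H2-Eb1, Irf3, Irf9, Ifngr1, Ifit2 and Ifit3; background 13.7%) and below them for 1 (Stat2; background 11.6%). At 6 h they lay above for 1 (Ifngr1; background 12.4%) and below for 2 (H2-D1 and Tap1; background 10.5%). The solvent change at 6 h was below 0 for 9 of the 10 tested class I genes, with a median of -0.13. Over all probe sets it was below 0 for 7148 of 15844, with a median of 0.00.

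Genes of the same pathways that were not on the list were read from 4 wider lists of 115 genes, of which 94 were on the array and 69 were tested. In limma 0 of 69 passed in any comparison, and at an unadjusted p under 0.05 the count was 2 on the average, 1 at 2 h, 2 at 4 h and 3 at 6 h. All probe sets gave 3.36%, 1.49%, 2.17% and 2.15% in the same order. Ifi30 encodes GILT, the lysosomal thiol reductase induced by interferon gamma, which unfolds antigens for class II presentation. Its level in solvent was 8.7 and 8.6 at 2 h, 8.5 and 8.7 at 4 h, and 8.8 and 8.6 at 6 h. With TCDD it was 9.2 and 9.4 at 2 h, 9.2 and 9.1 at 4 h, and 9.1 and 9.4 at 6 h. All 6 TCDD arrays lay above all 6 solvent arrays, as for 0.246% of all probe sets. The average change was 0.58 ± 0.10 (95% interval 0.36 to 0.81) and missed the threshold (limma, adjusted p = 0.117). It passed in only 1 of 22 alternatives, with TCDD set against the solvent arrays of all times (limma, adjusted p = 0.0328). Over these 22 limma's adjusted p ran from 0.0328 to 0.535, with changes of 0.53 to 0.63.

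The promoter of Ifi30, chr8:70766664-70766913 on the minus strand, is shown because the gene separated all arrays by treatment. It is written 5′ to 3′ along the gene, and capitals mark GCGTG, 61 bases before the start.

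Ifi30: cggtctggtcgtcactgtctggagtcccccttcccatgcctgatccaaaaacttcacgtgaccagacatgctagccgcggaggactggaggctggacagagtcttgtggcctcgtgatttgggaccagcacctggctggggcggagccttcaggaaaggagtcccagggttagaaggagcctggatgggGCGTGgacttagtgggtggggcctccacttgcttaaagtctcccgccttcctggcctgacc

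Jak1, the kinase shared by type I and type II interferon receptors and by many cytokine receptors, was at 8.2 and 8.5 in solvent and 9.1 and 8.9 with TCDD at 2 h. At 4 h it was at 8.0 and 7.9 in solvent and 8.3 and 9.6 with TCDD, and at 6 h at 8.5 and 8.7 in solvent and 9.8 and 10.3 with TCDD. TCDD lay above solvent at each time, but the first 4 h TCDD array lay within the solvent range of 7.9 to 8.7. The average change was 1.03 ± 0.21, a 2.05-fold higher level (limma, adjusted p = 0.210), and a further probe set of the gene gave 0.97 ± 0.20 (limma, adjusted p = 0.214). Without the first 4 h TCDD array, which left 1 array in that group, the change was 1.25. Over 22 alternatives the change ran from 0.76 to 1.25 and limma's adjusted p reached 0.884. No alternative that kept every array passed. Changes of Jak1 were 0.65, 1.00 and 1.45 at 2, 4 and 6 h, and limma's F-test of the change over time gave an adjusted p of 1.00.

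The other genes with the largest average changes of each wider list did not pass. In the class I list they were Psme4, a proteasome activator, at 0.27 ± 0.22, Erp44 at 0.13 ± 0.17, Pdia3, a member of the peptide-loading complex, at -0.15 ± 0.19 and Cd1d1 at -0.10 ± 0.10. In the class II list the subunits of the promoter-binding complex Nfyc, Nfya and Rfxap had 0.10 ± 0.13, -0.17 ± 0.17 and -0.13 ± 0.12. Among signalling genes the kinase Tyk2 had -0.28 ± 0.15, Il10rb -0.22 ± 0.20, and the inhibitors Socs1 and Pias1 0.07 ± 0.11 and 0.07 ± 0.14. Among interferon-stimulated genes Rtp4 had 0.25 ± 0.33, Trim21 0.20 ± 0.12 and Parp9 0.20 ± 0.26. On the lower side Irgm1 had -0.37 ± 0.24, Adar -0.17 ± 0.10 and the chemokine gene Cxcl10 -0.17 ± 0.14. Adar, an RNA-editing enzyme, was the 1 wider-list gene that was lower at an unadjusted p under 0.05: at 6 h it was at 4.8 and 4.8 in solvent and 4.5 and 4.2 with TCDD, a change of -0.45 ± 0.18 (limma, unadjusted p = 0.0304, adjusted p = 1.00). Ifnb1, which encodes interferon beta, ranked at percentile 41.7, with values of 4.4 to 4.8 on all 12 arrays.

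Cd74 parted by array set. The sets were formed from all tested probe sets, these genes included, so their differences are given without a test. Cd74 was at 6.6 to 7.1 on the 5 arrays of the smaller set and at 5.7 to 6.1 on the 7 arrays of the larger set. The set means were 6.86 and 5.81. In a fit that also held the 6 group means the smaller set was higher by 1.08 in log2, a 2.11-fold higher level, at percentile 99.7 of the 15844 signed differences from that fit; the differences that follow come from the same fit. Ifnar1 ran the other way, at 6.3 to 6.8 against 6.9 to 7.4 (-0.66), as did Tapbp, at 8.2 to 8.6 against 8.7 to 8.9 (-0.38). These 3 were the genes of the 28 whose sets did not overlap, 1 higher and 2 lower, against 1.98% and 3.14% of all probe sets. The other probe set of Tapbp, with a mean level of 5.83, did overlap, at 5.6 to 6.1 in the smaller and 5.7 to 5.9 in the larger set. H2-Ab1 was at 4.1 to 4.4 against 3.6 to 4.1 (0.40), with a mean level of 4.08, close to the filter value of 3.98. Its other probe sets had means below the filter. Of these, the probe set with a mean of 3.78 was at 3.8 to 4.0 against 3.5 to 3.8. The probe set with a mean of 3.68 was at 3.3 to 4.0 against 3.5 to 3.9. Ifit2 and Irf9 differed by -0.60 and -0.46 with overlapping values.

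Markers of dendritic cells, macrophages and other blood cells, only some of which could bring class II molecules, were read in the same sets. The mean log2 level of 14 such markers was 4.53 to 4.77 in the smaller and 4.41 to 4.61 in the larger set. Above the filter lay 8 of the 14, against 15844 of all 22626 probe sets that were not controls. Of those above it, Cd14 was at 6.6 to 7.4 and Csf1r at 5.1 to 5.7 over the 12 arrays, and Laptm5, Cd3e, Cd4, Fcer1g, Lyz2 and Cd68 had means of 5.66, 5.56, 5.53, 4.72, 4.48 and 4.38. Ptprc, the defining leukocyte gene, was at 2.6 to 2.9 on all 12 arrays, and Itgax, Itgam, Adgre1, Tyrobp and Cd79a also had means below the filter. The mean of 13 fibroblast and mesenchyme markers was 9.85 to 10.39 in the smaller and 10.35 to 10.62 in the larger set. For the 12 cortical thymic epithelial markers it was 5.43 to 5.49 in the smaller and 5.32 to 5.38 in the larger set. For the 8 medullary markers it was 4.26 to 4.58 and 4.16 to 4.40. The cortical markers did not all run the same way. Ccl25 was at 5.6 to 6.7 in the smaller and 5.6 to 5.9 in the larger set, but Cxcl12, the highest of them, at 11.9 to 12.3 and 12.3 to 12.6. The part of any of these lists in the difference of Cd74 was not tested. Neither 4 h solvent array belonged to the smaller set, so the 0.50 change of Cd74 with TCDD at that time compared arrays of both sets with arrays of one. With the array set as a block that change was -0.04 ± 0.19.

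**Figure D4:**
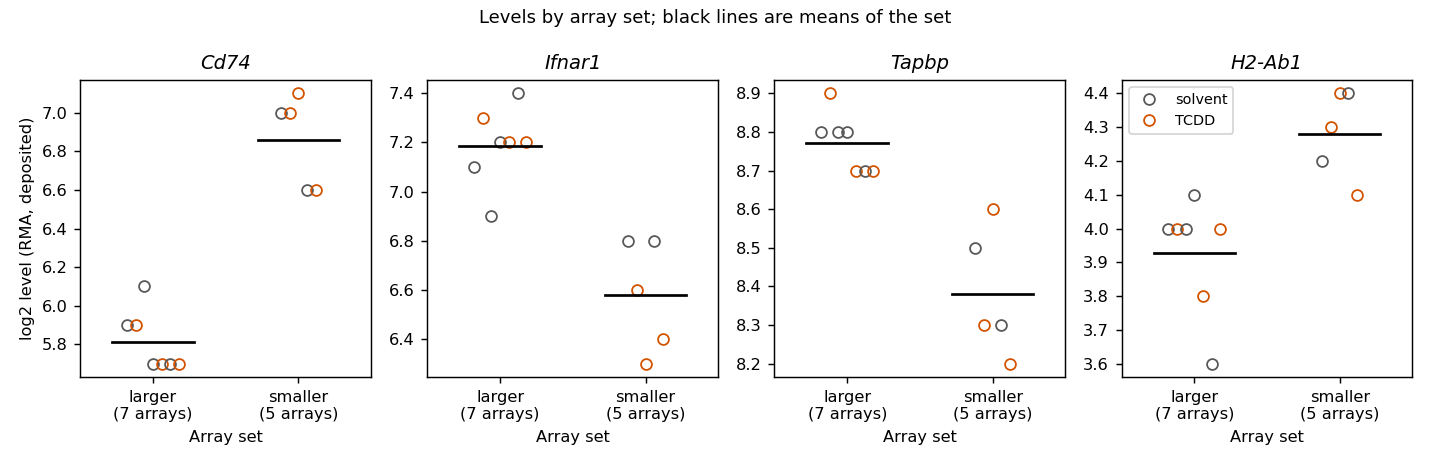
Deposited log2 level (y axis, a separate range in each panel) of Cd74, Ifnar1, Tapbp and H2-Ab1 in the larger (7 arrays) and the smaller (5 arrays) array set (x axis); circles are arrays, solvent in grey and TCDD in orange, and black lines are set means. Cd74 lies at 5.7 to 6.1 in the larger and 6.6 to 7.1 in the smaller set whichever the treatment, and H2-Ab1 touches at 4.1.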

How the data were processed

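RNA was measured on 12 Affymetrix arrays, 2 per group. The deposited values were log2 levels per probe set. The submitters' processing notes name RMA; its version, the software and the build are not given in the sources used here. The authors' log2 values have 1 decimal and lie between 2.2 and 14.1. Every array has a median of 5.1, which hides any change common to all genes. The number of arrays limited the precision.

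Of 22690 probe sets, 64 were controls. The platform annotation gave 20380 of the others 1 symbol, 691 several and 1555 none; 20351 of the 20380 matched RefSeq by gene identifier, with 0 symbols changed. Those at or above the 30th percentile were tested (15844). limma 3.58.1 in R 4.3.3 fitted 6 group means over 12 arrays (6 residual degrees of freedom; prior 3.81) with two-sided tests, and Benjamini-Hochberg adjustment over all tested probe sets within each comparison; errors of changes are standard errors of this fit. The analysis was also run on simulated data with independent noise on each array. That setting held neither the array sets nor the pairing of these data, so it cannot show how they affect the p-values.

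The genes and lists were chosen with earlier results of these data known. Array values were given for listed genes under an unadjusted p of 0.05 in any comparison and, per group, at least the 3 largest average changes; of each wider list, the 2 largest changes in each direction. Cyp1a1 was named as the check of treatment.

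Array sets came from complete-linkage clustering of the tested probe sets (4 clusters; the largest against all others). The titles' replicate numbers were checked for pairing: deviations of same-numbered arrays correlated at 0.37, 0.16 and 0.71 at 2, 4 and 6 h. The numbers were taken to pair arrays within a time, but were used only in the alternatives with a replicate block. The main fit held no pairing, so its standard errors and p-values are unpaired. Alternatives were other filters, scalings, variance models, blocks, solvent pools and leaving out each array. All value columns were used.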

Additional observations from a re-analysis of the deposited data

Results flagged for a closer look

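Stat2 separated its groups in opposite directions at 2 times: TCDD lay above solvent on both arrays at 4 h (0.15 in log2) and below it on both arrays at 6 h (-0.40). limma's F-test of the change over time did not pass (unadjusted p = 0.0737, adjusted p = 1.00). All 12 values lay between 4.2 and 4.8, close to the filter value of 3.98, and the gene's other probe set gave 0.00 at both times.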

How the results depend on the processing

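The count of listed genes past limma's test was 0 in all 7 comparisons under every adjusted alternative that was run, and 0 to 0 when each array was left out in turn. Without adjustment it was 1 at 2 h, 1 at 6 h, 1 on the average and 1 for the change over time. The replicate block within each time gave 0 listed genes in every comparison and changed no other call of a named gene; over all probe sets it gave 1 call at 2 h and 1 at 4 h in place of 3 and 2. With the array set as a block, calls over all probe sets (2 h, 4 h, 6 h, average) were 10, 7, 8 and 46, in place of 3, 2, 1 and 15; with solvent arrays pooled over time they were 12, 9, 15 and 26. Leaving out 1 array gave 0 to 9, 1 to 59, 0 to 7 and 10 to 24. Without variance moderation they were 0, 0, 0 and 6. Irf1 at 2 h ranged from 0.75 to 1.25 over 23 alternatives, with adjusted p from limma of 0.0610 to 1.00, and Stat2 at 6 h from -0.45 to -0.20. All probe sets lay above the filter value for 22 of the 33 genes. For the average and the change over time, the fit on the arrays of the times compared is the same fit and was not run.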

Other observations

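Erap1, below the filter, was at 2.7 to 3.6 on the solvent arrays and at 3.3 to 3.7 on the TCDD arrays. With no filter on low values its average change was 0.42 ± 0.12 and its 4 h change 0.70 ± 0.21, neither past limma's adjusted threshold (adjusted p = 0.961 and 0.969).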
